A study of Mus musculus with 20 samples.

Results

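Anti-G3BP1-only sites were positions in mouse brain RNA of embryonic stage E16.5 that carried edited reads in both anti-G3BP1 libraries and none in either IgG library. A position was taken when it had 10 or more covering reads in all 4 E16.5 libraries, 2 or more edited reads in each of the 2 anti-G3BP1 libraries and 0 edited reads in both IgG libraries. The rule took 2667 positions of the 337325 with that depth, out of 375414 unique positions listed for E16.5 brain and 783945 over the 4 stages and preparations of the study. The mirrored rule, with edited reads in both IgG libraries and none in the anti-G3BP1 libraries, took 678 positions, called IgG-only sites here. The positions were selected on the edited read counts of these 4 E16.5 libraries, so every E16.5 comparison of antibodies below is a description without a test.

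G3BP1 is an RNA-binding protein that, with its paralog G3BP2 and the partner CAPRIN1, forms the core of stress granules and is also found in neuronal RNA granules. In MAPIT-seq a primary antibody bound in the tissue is recognised by a secondary antibody, which recruits a fusion of protein A/G with the cytidine deaminase rAPOBEC1 and the deaminase of human ADAR2. RNA near the target then carries C-to-T changes from rAPOBEC1 and A-to-G changes from ADAR2, which are read by sequencing of poly(A) RNA. ADAR2 is known to prefer an adenosine that follows A or U, and APOBEC1 a cytidine that follows A or U.

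All tissue came from wild-type C57BL/6J mice. E16.5 brain and E12.5 brain, both labelled fresh frozen, each gave 2 libraries with the anti-G3BP1 antibody and 2 with rabbit IgG, and every one of them received the guinea pig anti-rabbit secondary and the rAPOBEC1-pAG-hADAR2 fusion. Material labelled E10.5 fresh-frozen embryo and material labelled E10.5 fixed embryo each gave 2 anti-G3BP1, 2 IgG and 2 untreated libraries, the last without antibody or fusion. The labels give 0.2% formaldehyde for the antibody libraries and no value of it for the untreated ones, including those titled fixed. The labels do not say that the 2 libraries of a group came from separate animals, so a p-value measures only the spread between these libraries, which may be technical. Intervals and upper limits below cover counting error only, since reads carry no molecular identifiers.

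The transcripts of each preparation were set against tissue markers before any site was compared. Summed TPM, a transcript level scaled for length and library size, of 7 cortical neuron genes ran from 5892 to 6046 in the E16.5 libraries and from 3878 to 6821 in those labelled E10.5 fresh-frozen embryo. Summed TPM of 5 heart genes was 15.7 to 24 in E16.5 brain and 6.81 to 26.8 in the libraries labelled fresh-frozen, against 3190 to 5053 in the fixed E10.5 embryo. Embryonic globins summed to 19.8 to 26.1 TPM in E16.5 brain, 81.9 to 188 TPM in the libraries labelled fresh-frozen, 7848 to 11410 TPM in E12.5 brain and 12424 to 17892 TPM in the fixed embryo. The fresh-frozen libraries with the label E10.5 embryo thus had cortical neuron, heart and embryonic globin levels nearer to E16.5 brain than to the fixed embryo. By median, their interneuron, fetal liver, trunk Hox, meninges and microglia levels were nearer to E16.5 brain as well. Other lists were nearer to the fixed embryo by median. The oligodendrocyte lineage had 48.4 to 117 TPM, against 152 to 189 TPM in E16.5 brain and 40.4 to 71.7 TPM in the fixed embryo. Endothelium and pericytes had 163 to 222 TPM, against 347 to 378 TPM in E16.5 brain and 99.8 to 128 TPM in the fixed embryo. Median summed TPM of adult globins was 917, against 1552 in E16.5 brain and 1223 in the fixed embryo. For neural progenitor genes it was 1044, against 723 and 1276 in the same order. By median, E12.5 brain was nearer to them than E16.5 brain for cortical neurons, with 2781 and 5977 TPM beside 4234. The same held for heart, with 6.80 and 19.4 TPM beside 13.0. It also held for trunk Hox, adult globins, the oligodendrocyte lineage, and endothelium and pericytes. E16.5 brain was the nearer of the 2 for embryonic globins, interneurons, neural progenitors, fetal liver, meninges and microglia. The libraries labelled fresh-frozen are called by their label throughout. Whether they share tissue with the E16.5 libraries was not tested.

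The 8 sequences that follow show the edited base in its transcript and were chosen because they are the 6 sites with the highest edited share in the lower of their 2 anti-G3BP1 libraries and 2 sites of genes described below. Each is written 5′ to 3′ on the transcript strand from the GENCODE M21 transcripts (GRCm38, mm10), 21 bases long, with the base before the edit and the edited base in capitals.
Cenpq: tgctgggatTAccggggcgag
Rnf182: tcgtgaggtAAcgcttctctg
Rwdd2b: ctgggagccAAacttgggtcc
Wdfy2: gctttgtctTAgttagggttt
Pgm2l1: gcacatcagTAcgttatgact
Insr: aacctgaccTAcagagcctgg
Ptprz1: gagcttcttTAtgttgcctaa
Celf2: ttgtagttcACtatttttgct

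All 8 edited bases in these windows follow an A or a T. The first 7 are A-to-G sites, and the Celf2 site is a C-to-T site.

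The strongest site lay in the 3′UTR of Cenpq, a kinetochore gene, at chr17:40923294 on the minus strand. It had 9 edited of 26 reads and 5 of 20 reads with anti-G3BP1, against 0 of 18 and 0 of 11 with IgG. The lower of its 2 anti-G3BP1 shares was 25%, and 3 reads of the summed IgG depth set an upper limit of 10.3% for IgG. The Rnf182 site at chr13:43669277, in the 3′UTR of a brain-expressed ubiquitin ligase gene, had 2 of 10 and 3 of 14 reads edited with anti-G3BP1 and 0 of 13 and 0 of 12 with IgG. The Insr site at chr8:3155128, in the 3′UTR of the insulin receptor, had 3 of 20 and 3 of 19 reads with anti-G3BP1 and 0 of 35 and 0 of 17 with IgG. These sites are strong in share and shallow in reads. Of the 25 sites with the highest lower share, 24 were A-to-G, 20 lay in a 3′UTR and 23 had a lowest depth of 20 reads or fewer.

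Most members were weaker and rested on few reads. The edited share had a median of 2.17% in the first anti-G3BP1 library, with a range of 0.335% to 50%, and a median of 1.46% in the second, with a range of 0.212% to 25%. The lower of the 2 shares was under 1% at 932 sites, 1% to 2% at 800, 2% to 5% at 701, 5% to 10% at 193 and 10% or more at 41. The median number of edited reads was 2 in each anti-G3BP1 library, with a maximum of 11 and 15. At 1173 sites (44.0%) both libraries stood exactly at the minimum of 2 edited reads, and at 466 (17.5%) both had 3 or more. Among IgG-only sites 462 (68.1%) stood at the minimum in both libraries and 29 (4.28%) had 3 or more in both. The upper limit that 3 reads of the summed IgG depth allow had a median of 0.917% over members.

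**Figure D1:**
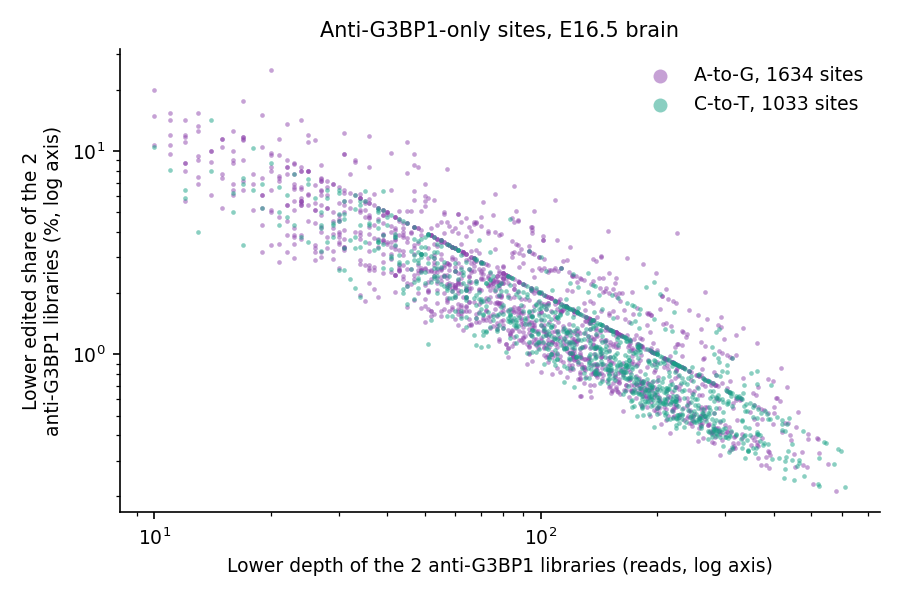
Each point is 1 anti-G3BP1-only site of E16.5 brain, with the lower depth of the 2 anti-G3BP1 libraries on a log x axis (reads) and the lower edited share on a log y axis (%), coloured by edit. The shares run from 0.212% to 25% and the upper end is reached at low depth, where 2 reads are a larger share.

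Counts at the edge of the rule show how it selects. A single edited read in one anti-G3BP1 library kept out 5944 positions that had 2 or more in the other and none in IgG, and no edited read in one of them kept out 63030. Another 1346 positions had 2 or more edited reads in both anti-G3BP1 libraries and a single edited read over the IgG libraries, and 1234 had 2. In the E16.5 libraries the number of positions with exactly 1 edited read was 22014 and 28650 with anti-G3BP1 and 24398 and 19606 with IgG. Positions with exactly 2 were more frequent, at 35293 and 50531 with anti-G3BP1 and 38569 and 30084 with IgG. Whether single edited reads were removed before deposition was not tested, and if they were, an IgG value of 0 can hide 1 read. In E12.5 brain positions with 1 edited read were the more frequent in the second anti-G3BP1 library, with 7809 against 7225 with 2, and in the first IgG library, with 2420 against 1739. On depth, 8 members had a lowest depth of 10, and 6 positions with the same edits had a lowest depth of 9.

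Members made up 0.791% of the positions with sufficient depth and IgG-only sites 0.201%, a ratio of 3.93. Neither antibody was favoured by depth throughout: the median depth at members was 115 and 184 reads with anti-G3BP1 and 188 and 137 with IgG. At all positions with sufficient depth it was 82 and 136 with anti-G3BP1 and 141 and 102 with IgG. Each IgG library was at least as deep as each anti-G3BP1 library at 26750 positions, of which 128 (0.479%) were members. The mirrored condition held at 5309 positions, of which 5 (0.0942%) were IgG-only sites. The member share was higher at greater lowest depth, with 0.318% at 10 to 24 reads, 0.571% at 25 to 49, 0.791% at 50 to 99, 1.01% from 100 to under 200 and 1.14% at 200 or more. The IgG-only share was below it in each of these classes, at 0.0934%, 0.121%, 0.167%, 0.259% and 0.358% in the same order.

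The largest class of members was A-to-G changes in 3′UTRs, with 1331 sites (49.9%), followed by C-to-T changes in 3′UTRs, with 944 (35.4%). A-to-G changes made up 1634 members (61.3%), 234 IgG-only sites (34.5%) and 35.8% of all positions with sufficient depth. Of the A-to-G positions 1.35% were members and 0.194% IgG-only, a ratio of 6.98. Of the C-to-T positions 0.477% were members (1033 sites) and 0.205% IgG-only (444 sites), a ratio of 2.33. The excess over the mirrored rule was thus larger for the product of the adenosine deaminase than for that of the cytidine deaminase.

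The position in the transcript separated members in the same way. In 3′UTRs 2275 members lay, which is 85.3% of them, against 79.1% of IgG-only sites and 70.8% of all positions. The member share was 1.55% at A-to-G positions of 3′UTRs, 0.921% at A-to-G coding positions and 0.616% at C-to-T positions of 3′UTRs, with IgG-only shares of 0.204%, 0.128% and 0.236% in the same order. At C-to-T coding positions the 2 rules gave nearly the same count, 71 members and 63 IgG-only sites. In all, 331 members were coding, 14 lay in 5′UTRs and 47 in noncoding exons. Within the 3′UTR, the distance of members from the stop codon had a median of 1009 bases and quartiles of 451 and 2013.5 bases, against a median of 1000 bases over all 3′UTR positions.

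**Figure D2:**
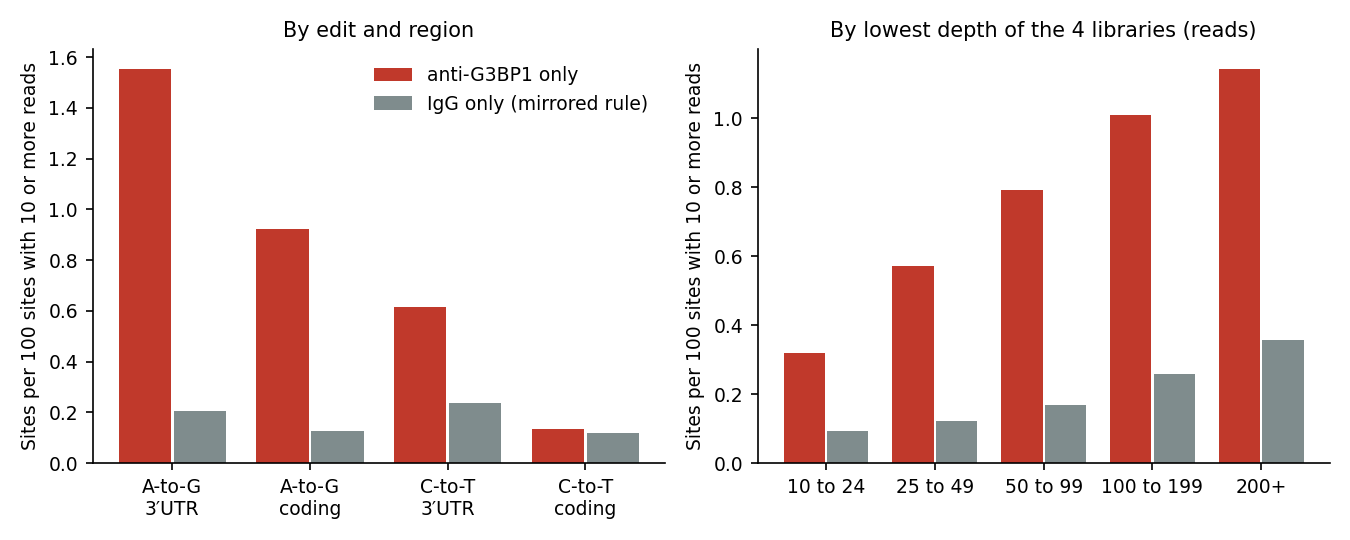
Bars give the number of anti-G3BP1-only sites and of IgG-only sites per 100 positions with 10 or more reads in all 4 E16.5 libraries, by edit and region on the left and by lowest depth on the right. The member bar is the taller one in each depth class, and the pairs by edit and region reach from 1.55 against 0.204 at A-to-G positions of 3′UTRs to 0.134 against 0.119 at C-to-T coding positions.

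The base before the edit was not used by the rule either. Of A-to-G positions after T, 2.30% were members (624 sites), and of those after A 1.86% (584 sites), followed by 0.894% after C and 0.488% after G. IgG-only sites were 0.240%, 0.149%, 0.129% and 0.261% of the same 4 classes. Of C-to-T positions, 1.09% were members after A (799 sites), 0.319% after T, 0.114% after G and 0.0573% after C. Members were the fewer after G, with 68 members against 108 IgG-only sites, and after C, with 22 members against 32 IgG-only sites. The base composition around members was also lower in G and C, with a median of 42.6% in a window of 50 bases to each side, against 46.5% at IgG-only sites and 49.5% over all positions.

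Some members lay close together. Another member lay within 50 bases of 263 of them (9.86%), and 22 members were directly adjacent to another. Sites so close are covered by the same reads and are not independent observations. In Tspyl1, a gene of the nucleosome assembly protein family, the A-to-G members at chr10:34284037 and chr10:34284038 had 7 and 5 edited reads in the first anti-G3BP1 library, 12 and 9 in the second, and none of 193 and 135 reads with IgG.

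Genes that held a member numbered 2056 of 13185 with a position of sufficient depth (15.6%), and 2013 of them were protein-coding. The IgG-only sites lay in 651 genes. The 224 genes with both kinds were 10.9% of the member genes and 34.4% of the IgG-only genes. One member each was held by 1560 genes, and 496 genes held 2 or more. Of the 2667 members, 29 were listed under more than 1 gene, among them positions of the protocadherin alpha cluster, whose genes share their last exons. Member genes were the more abundant ones: their median level in E16.5 brain was 59.9 and 59.3 TPM with anti-G3BP1 and 61.0 and 57.3 TPM with IgG. Other genes with a position of sufficient depth had medians of 29.2 and 29.4 TPM with anti-G3BP1 and 30.3 and 29.3 TPM with IgG, so the level of member genes was alike with both antibodies.

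Of the genes with members, 11 held 5 or 6 each, all in 3′UTRs. Ptprz1, a receptor phosphatase of radial glia, Nedd4, a ubiquitin ligase, Caprin1, the G3BP1 partner, Hmgcs1, an enzyme of cholesterol synthesis, and Zfr, a zinc finger RNA-binding protein, held 6 each. Tspyl1, Aff4, a scaffold of the transcription elongation complex, Celf2, a splicing regulator, Cep170, a centrosome protein, Ctnnb1, the Wnt effector beta-catenin, and Camsap2, a protein of microtubule minus ends, held 5 each. Camsap2 had the fewest edited reads at members of those with 5 and is not among the 10 genes described further. Zfr had the highest density, with 6 members among 51 positions (11.8%), and its 6 sites lay between 12184205 and 12185258 on chromosome 15. All 5 members of Celf2 were C-to-T, whereas 4 of the 6 in Caprin1 were A-to-G. Of the RNAs of the G3BP proteins themselves, G3bp1 held 0 members at 58 positions and G3bp2 0 at 106.

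The values of single sites show how narrow these differences were in reads. The Ptprz1 site printed above, at chr6:23003325, had 4 of 84 and 5 of 139 reads edited with anti-G3BP1 and 0 of 114 and 0 of 66 with IgG. A second Ptprz1 site, at chr6:23004182, had 8 of 298 and 4 of 337 reads with anti-G3BP1 and 0 of 337 and 0 of 265 with IgG. In Caprin1 the site at chr2:103764693 had 2 of 17 and 3 of 42 reads with anti-G3BP1 and 0 of 17 and 0 of 19 with IgG. Its other 5 sites were deeper and had lower shares, from 0.685% to 2.24%. The Celf2 site printed above, at chr2:6540060, had 2 of 144 and 4 of 218 reads with anti-G3BP1 and 0 of 261 and 0 of 174 with IgG. At each of these sites the anti-G3BP1 libraries lay above the IgG libraries without overlap, which is what the rule required.

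Members were also counted in 15 lists of genes by function, where the share of members over all positions was 0.791% and that of IgG-only sites 0.201%. Chaperone genes had 20 members and 1 IgG-only site among 1391 positions, or 1.44% and 0.0719%. Splicing factor and hnRNP genes had 41 members and 3 IgG-only sites, or 1.06% and 0.0778%, in 25 of 40 genes. Neural progenitor genes had 19 members (1.23%) and axon guidance and adhesion genes 32 (1.21%), with IgG-only shares of 0.194% and 0.342%. Genes of RNA granules and G3BP partners had 25 members (1.02%) and 7 IgG-only sites (0.287%), in 12 of 35 genes. At the other end, ribosomal protein genes had 2 members (0.278%) and 3 IgG-only sites (0.417%), long noncoding RNAs 7 members (0.411%), and mitochondrially encoded genes 1 member. The positions of most lists were deeper than all positions, whose median lowest depth was 80 reads: it was 143 reads for splicing and hnRNP genes, 144 for chaperones, 143 for neural progenitor genes, 109 for axon guidance genes and 103 for granule genes. Over all positions with 100 to under 200 reads the member share was 1.01%, and the shares of the splicing and granule lists were near that value. A list also holds positions outside this depth class, so the comparison is not matched for depth. Chromatin regulators (1.03%, 131 reads) and ubiquitin genes (1.09%, 120 reads) were near it too. A-to-G positions were 42.1% of the chaperone positions and 35.8% of all. Neuronal cytoskeleton genes had 31 members (0.723%) and 4 IgG-only sites. Their median lowest depth was 179 reads, and their member share was below the same 1.01%. Below the 1.01% were also synapse genes (0.654%, 125 reads) and translation factors (0.596%, 136 reads). The same held for vesicle traffic genes (0.854%, 143 reads) and signalling genes (0.837%, 157 reads).

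**Figure D3:**
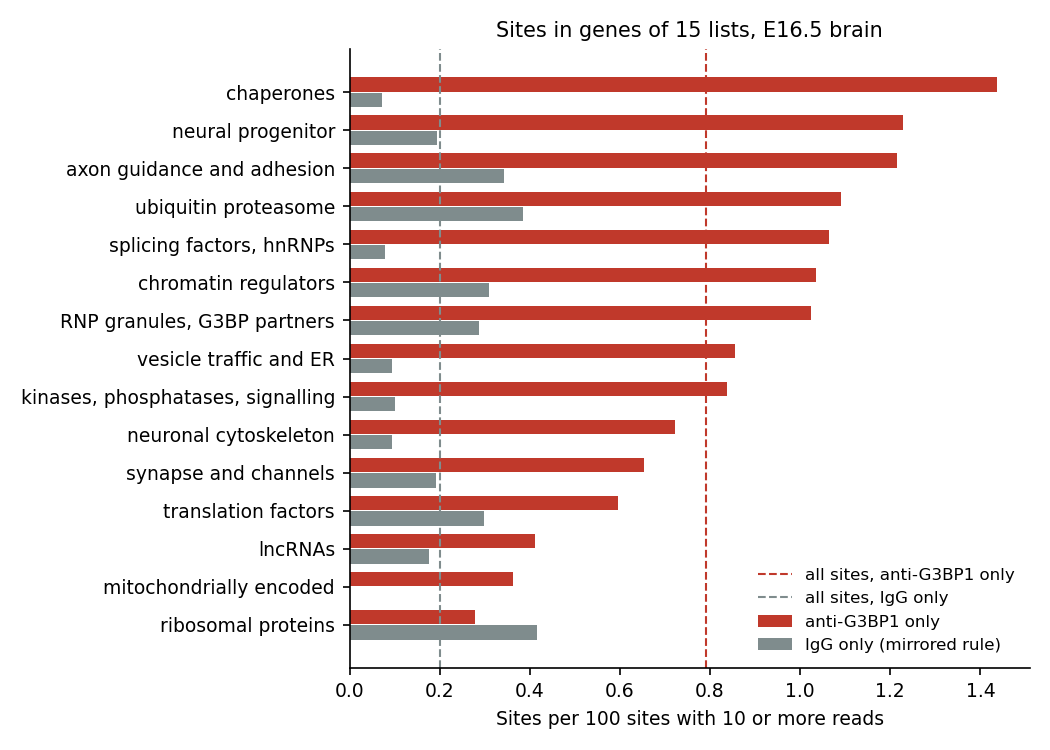
Bars give the number of anti-G3BP1-only sites (upper bar) and IgG-only sites (lower bar) per 100 positions with 10 or more reads, for the genes of 15 lists, and dashed lines give the 2 values over all positions, 0.791 and 0.201. Chaperones reach 1.44 against 0.0719, and ribosomal protein genes are the list where the IgG-only bar is the longer one.

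Examples from the lists had the same form. In Map1b, a microtubule-associated protein of axons, the A-to-G site at chr13:99424699 had 2 of 39 and 6 of 78 reads edited with anti-G3BP1 and 0 of 82 and 0 of 59 with IgG. In Cct6a, a subunit of the chaperonin that folds actin and tubulin, the A-to-G site at chr5:129844981 had 2 of 13 and 3 of 40 reads with anti-G3BP1 and 0 of 41 and 0 of 25 with IgG. In Epha7, an ephrin receptor, the site at chr4:28966604 had 4 of 41 and 3 of 70 reads with anti-G3BP1 and 0 of 54 and 0 of 53 with IgG. The Fbxw7 site at chr3:84976298, in the coding sequence of a ubiquitin ligase subunit, was among the stronger ones, with 3 of 13 and 5 of 53 reads with anti-G3BP1 and 0 of 40 and 0 of 24 with IgG. The Crebbp site at chr16:4083312, in the 3′UTR of a histone acetyltransferase, was deep, with 4 of 136 and 5 of 217 reads with anti-G3BP1 and 0 of 236 and 0 of 132 with IgG.

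The other 3 preparations were not used to choose the members, and their edited reads could be compared between antibodies. Each of their tables lists its own positions. Members were listed 1318 times in E12.5 brain, 703 times in the libraries labelled fresh-frozen and 118 times in the fixed embryo, and 706, 591 and 111 of them had 10 or more reads in the 4 antibody libraries. A total of 32 members were listed in all 4 tables, and 1085 in none of the other 3. The tables of the 2 E10.5 preparations hold almost no position without an edited read, 1575 and 1143, so a member listed there had been edited in some library, whereas the E12.5 table holds 213986 such positions.

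Edited reads at members were most frequent with anti-G3BP1 in the libraries labelled fresh-frozen. Over the 591 members, 2.80% (95% Wilson interval 2.64% to 2.98%) and 3.0% (2.86% to 3.14%) of reads were edited with anti-G3BP1, 0.639% (0.559% to 0.729%) and 0.823% (0.731% to 0.926%) with IgG, and 0.104% and 0.136% without treatment. Anti-G3BP1 was 3.97-fold above IgG at members, against 1.89-fold over all 109914 positions and 1.84-fold at the 67 IgG-only sites. Over all positions 1.25% and 1.27% of reads were edited with anti-G3BP1, 0.657% and 0.680% with IgG and 0.385% and 0.359% without treatment. The fold at members was 4.04 at A-to-G sites and 3.39 at C-to-T sites, against 2.22 and 1.55 over all positions of these edits. It was 3.96 without the 10 most edited members and 3.87 over members with no other within 50 bases.

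In E12.5 brain the same order held with a wider spread. Over 706 members, 0.904% (0.815% to 1.0%) and 0.598% (0.531% to 0.673%) of reads were edited with anti-G3BP1 and 0.198% (0.140% to 0.279%) and 0.385% (0.335% to 0.443%) with IgG. That was 2.58-fold, against 1.95-fold over all 126802 positions. Without the 10 most edited members the fold was 2.15, and over members with no other within 50 bases 2.44. Over all positions 0.429% and 0.374% were edited with anti-G3BP1 and 0.198% and 0.214% with IgG. The fold at C-to-T members was 1.65, close to the 1.63 of all C-to-T positions, and at A-to-G members 2.88 against 2.34. At IgG-only sites the fold was 1.70, and 4.42 at the 25 A-to-G ones, which had 15 and 2 edited reads with anti-G3BP1 and 1 and 2 with IgG. At C-to-T members the antibodies overlapped, with 0.239% and 0.445% with anti-G3BP1 and 0.164% and 0.249% with IgG.

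In the fixed E10.5 embryo the antibodies lay closer together at members. Over 111 members, 0.703% (0.569% to 0.867%) and 0.442% (0.328% to 0.595%) were edited with anti-G3BP1, 0.338% (0.269% to 0.424%) and 0.435% (0.339% to 0.558%) with IgG, and 0.192% and 0.177% without treatment. The second anti-G3BP1 library lay within the interval of the second IgG library. Over all positions 0.571% and 0.589% of reads were edited with anti-G3BP1 and 0.432% and 0.480% with IgG. Without treatment it was 0.462% and 0.620%, so over all positions the untreated libraries were not below the IgG libraries. The fold at members was 1.48, against 1.27 over all 78056 positions. It was 1.45 without the 10 most edited members and 1.38 over members with no other within 50 bases. At C-to-T members the fold was 0.999, against 1.25 over all C-to-T positions, and at A-to-G members 1.89 against 1.32.

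**Figure D4:**
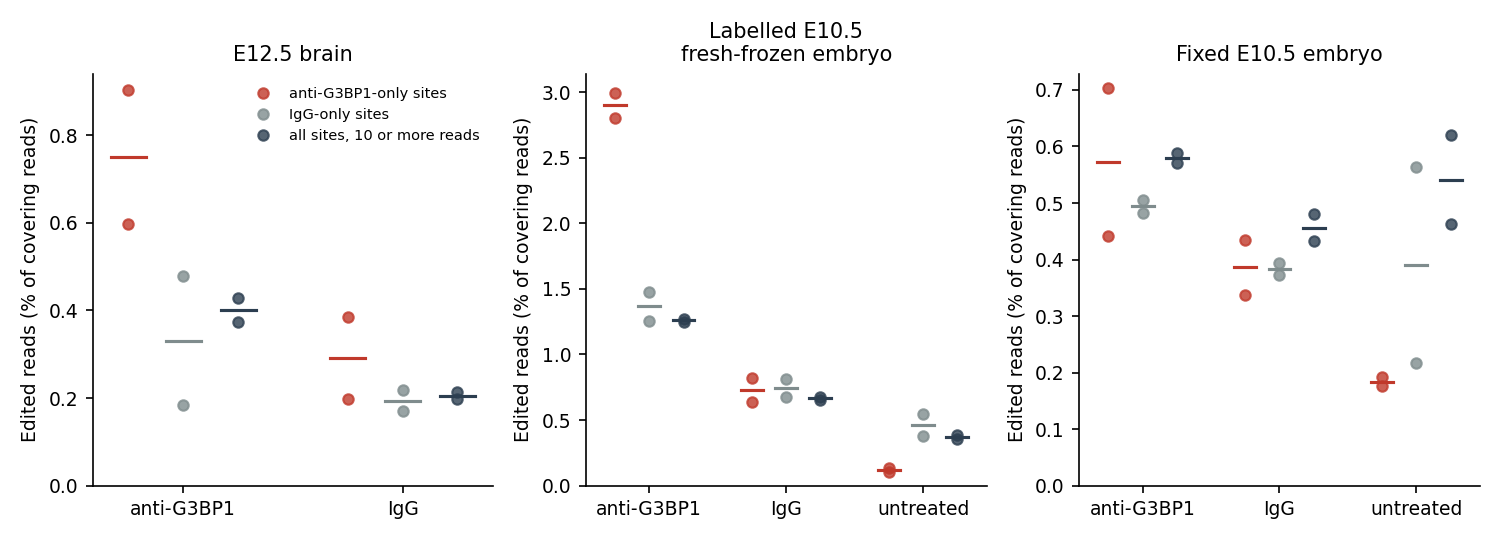
Points give the edited share of covering reads (%) in each library of the 3 preparations that the rule did not use, over anti-G3BP1-only sites, IgG-only sites and all positions with 10 or more reads, and short lines give the mean of the 2 libraries. In the libraries labelled fresh-frozen the members stand at 2.80 and 3.0 with anti-G3BP1, against 0.639 and 0.823 with IgG and 0.104 and 0.136 without treatment.

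Site by site, the separation between the antibodies was counted and then tested. Both anti-G3BP1 libraries lay above both IgG libraries at 213 of 591 members (36.0%) in the libraries labelled fresh-frozen, where 7.92% of all positions did so. They lay below at 4 members, against 1.23% of all positions. In E12.5 brain 33 of 706 members (4.67%) lay above, against 1.38% of all positions, and 6 below, against 0.235%. In the fixed embryo 5 of 111 members lay above and 5 below, against 1.41% and 1.97% of all positions.

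No member passed the test of a single site in any of the 3 preparations. The quasi-binomial model, fitted over all positions with 4 or more edited reads, tested 338 members among 15828 positions in the libraries labelled fresh-frozen, and 0 positions (0%) were called there at an adjusted p under 0.05. An unadjusted p under 0.05 was reached by 1581 of these positions (9.99%), and by 55 of the 338 members, all with a higher share with anti-G3BP1. edgeR's quasi-likelihood test called 167 positions (1.06%), none of them a member. In E12.5 brain 63 members were among 3739 positions tested, of which 5 were called higher (0.134%) and 1 lower (0.0267%), with 3 members higher and 1 lower at an unadjusted p under 0.05. At that p 6.61% of all positions passed in either direction. edgeR called 3 lower positions (0.0802%) and no member. In the fixed embryo 14 members were tested, with 2 higher at an unadjusted p under 0.05 and none lower, and of 4309 positions 3 were called higher (0.0696%) by the model and 6 (0.139%) by edgeR, none of them a member, while 11.9% of positions had an unadjusted p under 0.05. In E12.5 brain the count of called positions, members or not, depended on single libraries. Without the first anti-G3BP1 library the median log2 odds ratio was 0.61 over members tested and 1.64 over all positions tested. Without the second it was 1.75 and 1.98, and with all 4 libraries 1.15 and 1.93.

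The named members could be followed in reads. In the libraries labelled fresh-frozen 34 of them were listed and 26 had 10 or more reads in each antibody library. Both anti-G3BP1 libraries lay above both IgG libraries at 13 of these 26, and below at 0, against 7.92% and 1.23% of all positions. In E12.5 brain 32 of 60 listed had that depth, with 1 above and 0 below, against 1.38% and 0.235% of all positions. Of the 3 sites given next, each was chosen after its values were seen. At the Ptprz1 site of chr6:23003325, 12 of 155 and 7 of 254 reads were edited with anti-G3BP1 in the libraries labelled fresh-frozen, against 0 of 89 and 0 of 99 with IgG and 0 of 190 and 0 of 196 without treatment. At the Fbxw7 site 4 of 49 and 11 of 67 reads were edited with anti-G3BP1, 1 of 30 and 0 of 41 with IgG, and 0 of 89 and 0 of 76 without treatment. The Dnaja1 site, in the 3′UTR of a cochaperone at chr4:40733831, had 4 of 127 and 6 of 157 with anti-G3BP1, 1 of 128 and 0 of 128 with IgG, and 0 of 154 and 0 of 153 without treatment. At these 3 sites both anti-G3BP1 libraries were above both IgG libraries. The Map1b site at chr13:99424699 went the other way in reads, with 0 of 6 and 0 of 13 with anti-G3BP1 and 1 of 31 and 4 of 20 with IgG in the libraries labelled fresh-frozen, and 0 of 13 and 0 of 27 with anti-G3BP1 and 0 of 7 and 3 of 23 with IgG in E12.5 brain. The Ptprz1 site was not edited in E12.5 brain, where it had 6, 3, 6 and 10 covering reads. The Cenpq site had 0 of 9 and 4 of 10 reads edited with anti-G3BP1 and 1 of 1 and 0 of 1 with IgG in the libraries labelled fresh-frozen, too shallow for a comparison. In the fixed embryo, where it was deeper, it had 7 of 70 and 4 of 59 with anti-G3BP1, 2 of 127 and 2 of 85 with IgG, and 2 of 63 and 0 of 14 without treatment. In E12.5 brain it had 3 of 8 and 1 of 6 with anti-G3BP1 and 0 of 1 and 0 of 11 with IgG.

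Genes with a member were then read at their other positions, with the member positions left out. In the libraries labelled fresh-frozen 281 of 1812 member genes (15.5%) were called higher with anti-G3BP1 and none lower (quasi-binomial model, Benjamini-Hochberg adjusted p under 0.05), where 586 of all 8300 genes tested (7.06%) were higher and 3 lower (0.0361%). Of the 6488 genes without a member 305 were called higher. The median log2 odds ratio was 1.06 over member genes and 0.91 over all genes tested. The 281 genes stand for 270 distinct sets of reads, since genes of the protocadherin alpha cluster share positions. Without either anti-G3BP1 library, which leaves 1 library in that group, no gene was called. Without an IgG library fewer genes were called, with or without a member. Over these fits the median log2 odds ratio ran from 1.03 to 1.21 in member genes and from 0.80 to 1.09 in all genes tested. The log2 odds ratios of the 5 called genes named next stayed between 1.22 and 2.52 in these fits. edgeR called 248 member genes, of which 247 were among the 281, and 6.36% of all genes higher and 0.0361% lower. An unadjusted p under 0.05 was reached by 640 member genes higher and 9 lower, where 22.3% of all genes passed in either direction.

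Member genes were also the more deeply covered ones, and calls depend on reads. The genes tested were put into 4 classes of like size by covering reads. In the class with most reads 214 of 804 member genes (26.6%) and 190 of 1270 other genes were called higher, with medians of 7772.5 and 6728.5 covering reads and median log2 odds ratios of 1.03 in member genes and 0.82 in other genes. In the next class it was 47 of 469 member genes and 78 of 1607 other genes (4.85%), and in the one after it 16 of 337 member genes (4.75%) and 32 of 1737 other genes (1.84%). In the class with fewest reads 4 of 202 member genes and 5 of 1874 other genes were called, and the median log2 odds ratio was 0.92 in member genes and 0.94 in other genes.

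Of the 10 genes with the most members, 5 were called higher at their other positions. Nedd4 had 1.59% and 1.12% of reads edited with anti-G3BP1 and 0.229% and 0.397% with IgG, a log2 odds ratio of 2.08 ± 0.43 (SE, adjusted p = 5.27e-05). Hmgcs1 had 2.22% and 2.2% with anti-G3BP1 and 0.523% and 0.416% with IgG, a log2 odds ratio of 2.22 ± 0.47 (adjusted p = 8.88e-05). Celf2 had 1.45% and 1.27% with anti-G3BP1 and 0.540% and 0.523% with IgG (log2 odds ratio 1.33 ± 0.25, adjusted p = 6.22e-05). Zfr (adjusted p = 0.00494) and Aff4 (adjusted p = 0.0233) were the other 2, with log2 odds ratios of 1.58 and 1.55. Aff4 was not called with 20 or more reads per position (log2 odds ratio 1.34), with a replicate block (1.56) or without any 1 of the 4 libraries (1.22 to 1.93). For these 5 genes the antibodies did not overlap. Ptprz1 had 1.03% and 1.05% with anti-G3BP1 and 0.618% and 0.574% with IgG, and did not pass (adjusted p = 0.0716). Caprin1, Tspyl1, Cep170 and Ctnnb1 did not pass either, with adjusted p from 0.151 to 0.866. G3bp2, without a member, was called higher, with 0.930% and 1.60% with anti-G3BP1 and 0.183% and 0.699% with IgG (log2 odds ratio 1.48, adjusted p = 0.0333). G3bp1 was not called (log2 odds ratio 0.39, adjusted p = 0.692).

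**Figure D5:**
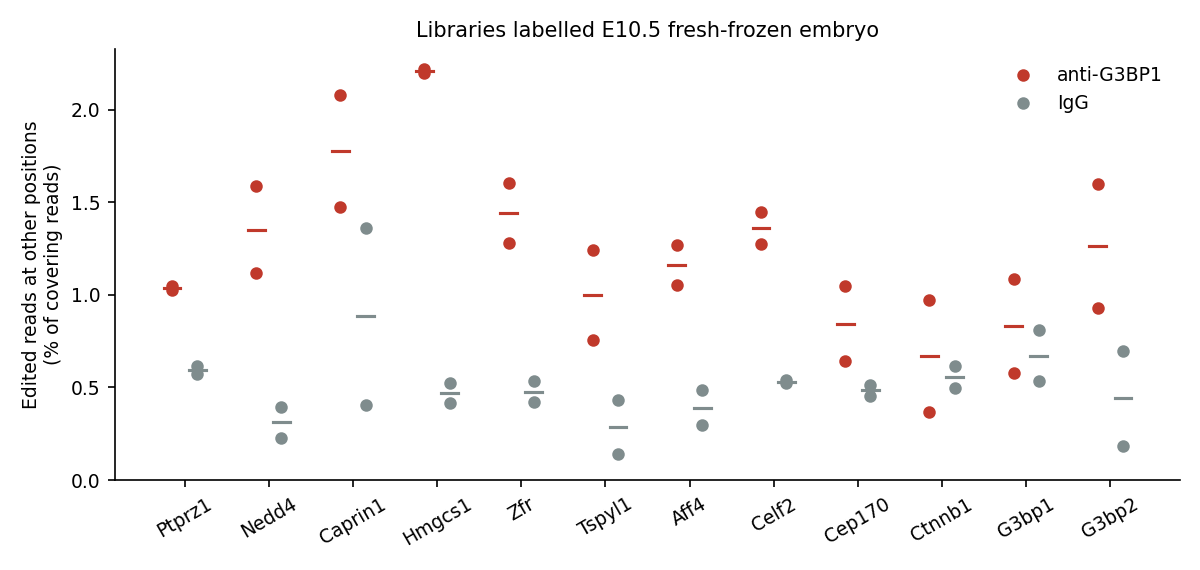
Points give the edited share (%) at positions other than the members in the libraries labelled fresh-frozen, for the 10 genes with the most members and for G3bp1 and G3bp2, with anti-G3BP1 left of IgG and a line at the mean of the 2 libraries. Hmgcs1 stands apart at 2.22 and 2.2 with anti-G3BP1 against 0.523 and 0.416 with IgG, and the antibodies overlap in Ctnnb1 and G3bp1.

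By function, the called member genes of the libraries labelled fresh-frozen were spread over most lists, beside 15.5% of all member genes tested. Of member genes that were tested, 10 of 25 splicing factor and hnRNP genes, 8 of 20 neuronal cytoskeleton genes, 6 of 20 axon guidance and adhesion genes, 4 of 12 chaperone genes, 3 of 8 neural progenitor genes and 2 of 12 genes of RNA granules and G3BP partners were called higher. It was 5 of 22 signalling genes, 3 of 13 chromatin regulators, 3 of 19 synapse genes, 3 of 18 vesicle traffic genes, 1 of 9 ubiquitin genes and 1 of 6 translation factors. With or without a member, 12 of 39 splicing and hnRNP genes and 11 of 34 cytoskeleton genes were called, beside 7.06% of all genes tested. It was 10 of 35 axon guidance, 6 of 19 neural progenitor, 10 of 43 synapse, 5 of 23 chaperone and 8 of 37 signalling genes. Vesicle traffic genes had 7 of 37, ubiquitin genes 4 of 27, chromatin regulators 4 of 29, granule genes 4 of 35 and translation factors 3 of 25. Ribosomal protein genes had 1 of 29. These counts were not matched for covering reads. None of the 2 ribosomal protein genes and none of the 5 long noncoding RNAs with a member were called, and none of any list was lower. Map1b had 1.74% and 1.98% with anti-G3BP1 and 0.788% and 0.818% with IgG (log2 odds ratio 1.23, adjusted p = 4.23e-06). Tuba1a, an alpha tubulin of migrating neurons chosen after its value was seen as the call with the smallest p, had 4.30% and 4.62% with anti-G3BP1 and 0.508% and 0.593% with IgG (log2 odds ratio 3.05, adjusted p = 1.02e-10). Bcl11b, a transcription factor of deep-layer cortical neurons, had 1.72% and 1.90% with anti-G3BP1 and 0.578% and 0.794% with IgG (log2 odds ratio 1.42, adjusted p = 1.43e-05). The 2 granule genes called were Pum2 and Ddx6, a translational repressor and an RNA helicase of P-bodies, with log2 odds ratios of 1.75 and 1.49 (adjusted p = 0.000302 and 0.00522).

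In E12.5 brain 6 of 1402 member genes (0.428%) were called higher at other positions and none lower, where 15 of 5561 genes (0.270%) were higher and 1 lower (0.0180%), so the share in member genes was near that of all genes. edgeR called 0.234% of genes higher and 0.0180% lower, and 8.07% of genes had an unadjusted p under 0.05, as did 142 member genes with a higher and 4 with a lower share. The 6 were Snx1, Rnf20, Cct6a, Hsp90ab1, Fam49b and Dpf2. Cct6a had 2.49% and 0.577% with anti-G3BP1 and 0.0694% and 0.353% with IgG (log2 odds ratio 2.38 ± 0.67, adjusted p = 0.0151). It was also called in the libraries labelled fresh-frozen, with 5.37% and 7.91% with anti-G3BP1 and 1.66% and 1.15% with IgG (log2 odds ratio 2.32 ± 0.44, adjusted p = 9.76e-06). Hsp90ab1, a cytosolic HSP90 chaperone, had 0.633% and 0.218% with anti-G3BP1 and 0.0549% and 0.103% with IgG in E12.5 brain (log2 odds ratio 2.15, adjusted p = 0.0166). In Rnf20, a histone ubiquitin ligase, the first anti-G3BP1 library alone was high, with 17.9%, against 0.369% in the second and 1.57% and 0% with IgG. The count of called genes in E12.5 brain, with or without a member, depended on single libraries. The median log2 odds ratio was 0.38 over member genes and 0.17 over all genes tested without the first anti-G3BP1 library. It was 0.64 and 0.35 without the second, 0.74 and 0.66 without the first IgG library, and 1.22 and 0.91 without the second IgG library. With all libraries, the median in the classes from fewest to most covering reads was 0.24, 0.48, 0.75 and 0.79 in member genes. In other genes of the same classes it was 0.023, 0.59, 0.75 and 0.74. In the fixed embryo 0 of 1555 member genes were called by the model or by edgeR, where 1 of 7927 genes (0.0126%) was higher, and 102 member genes were higher and 7 lower at an unadjusted p under 0.05, which 6.75% of all genes reached.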

How the data were processed

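The authors deposited, per the file headers, counts of covering reads and of edited reads for each site and library in 4 editing tables, and TPM per gene in 4 expression tables. The submitters' processing notes name GATK 4.5.0.0, Picard 3.1.1, the aligners HISAT2 2.2.1 and BWA 0.7.17, Subread, featureCounts 2.0.1, and the builds GRCm38 and mm10. No source used here gives the role of each tool or the rule for listing a site. Repeated lines, 215 in the E16.5 table, were removed. Median depth at E16.5 positions with 10 or more reads was 82 to 141 reads per library. Region, preceding base and sequence came from GENCODE M21, whose transcript base equalled the listed reference base at all 337127 positions that had one, and gene IDs were matched without their version (13177 of 13185).

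Edited and unedited reads of E12.5 brain and of both E10.5 preparations were tested per position (10 or more reads in each antibody library, 4 or more edited reads in all) and per gene (member positions left out, 50 or more reads in each library) with a quasi-binomial logistic model. To each library 0.25 edited and 0.25 unedited reads were added. limma 3.58.1 (squeezeVar) shrank the dispersion towards a trend over edited reads, with a floor of 1, and p-values were adjusted by Benjamini-Hochberg over everything tested in a table. The code was tested on simulated data. edgeR 4.0.16 was run with log covering reads as offset and a moving-average dispersion trend, since its default trend failed on these counts. Shares over members are sums of reads and carry no p-value.

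Members and gene lists were chosen with earlier results of these data known. Named by rule were the 25 members with the highest lower share, members called per site (none), the 10 genes with the most members (ties by edited reads), up to 3 members per list, and G3bp1, G3bp2 and Caprin1. Genes of lists called in another preparation were named after their values were seen. Alternatives that pooled subsets of members or left out a library from the pooled share were added after the data were examined, as was the restriction to 1 alternative allele. Of the members, 2446 listed 1 alternative allele and 221 more than 1, among them the Map1b and Dnaja1 sites given above. A deletion allele was listed at 151 members. Replicate numbers are not stated to pair libraries.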

Additional observations from a re-analysis of the deposited data

Results flagged for a closer look

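Aff4, the elongation scaffold with 5 members, went opposite ways at its other positions in 2 preparations. In the libraries labelled fresh-frozen both anti-G3BP1 libraries, with 1.27% and 1.05% of reads edited, lay above both IgG libraries, with 0.296% and 0.487%, and the log2 odds ratio was 1.55. In E12.5 brain both anti-G3BP1 libraries, with 0.139% and 0.122%, lay below both IgG libraries, with 0.293% and 0.174%, and the log2 odds ratio was -0.65 (SE 1.25). The E12.5 values rest on 2 and 2 edited reads with anti-G3BP1 and 2 and 3 with IgG. The difference between the preparations was not tested.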

How the results depend on the processing

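Asking for 3 or more edited reads gave 466 members and 29 IgG-only sites, a ratio of 16.1, and asking for 1 or more gave 10110 and 4119, a ratio of 2.45. Where each library of the group at 0 was at least as deep as each of the other group, 128 members of 26750 positions and 5 IgG-only sites of 5309 were left, so their ratio of 25.6 is not on the scale of the others. A-to-G sites alone gave 1634 and 234 (6.98), and C-to-T sites alone 1033 and 444 (2.33). Dropping 1 library from the rule, which then asks less, gave 3792 to 45887 members and 976 to 29104 IgG-only sites. In E12.5 brain 6 positions were called, 3 by edgeR and 3 at 20 or more reads, and leaving out 1 library gave 0 to 604 positions and 0 to 10 members. There 16 genes were called, with 0 to 80 genes and 0 to 36 member genes when 1 library was left out. In the libraries labelled fresh-frozen 0 positions were called, 167 by edgeR and 33 among positions with 1 or more edited reads, and 0 to 60 without 1 library. Of 589 genes and 281 member genes called there, 20 or more reads gave 294 and 157, and leaving out 1 library 0 to 186 and 0 to 100. In the fixed embryo 3 positions were called, 6 by edgeR, with 0 to 8 positions and 0 to 2 genes when 1 library was left out. The replicate numbers were not found to pair libraries, with correlations of deviations of -0.0056 in E12.5 brain, 0.013 in the libraries labelled fresh-frozen and -0.0024 in the fixed embryo. A replicate block gave 11 positions and 31 genes in E12.5 brain, 153 genes and 93 member genes in the libraries labelled fresh-frozen, and 0 positions and 0 genes in the fixed embryo. The anti-G3BP1 over IgG fold at members ran over 1 library left out from 3.53 to 4.54 in the libraries labelled fresh-frozen, 1.95 to 3.8 in E12.5 brain and 1.14 to 1.82 in the fixed embryo. It turned to 0.999 at C-to-T members of the fixed embryo, and at IgG-only sites to 0.955 at A-to-G sites of the fixed embryo and 0.948 in E12.5 brain without the first anti-G3BP1 library (0.948 to 2.46 over 1 library left out). The log2 odds ratio of Ctnnb1 in the libraries labelled fresh-frozen turned to -0.63 without the second anti-G3BP1 library and was 0.75 without the first. The cause of these changes was not tested. The median member rests on 2 edited reads per anti-G3BP1 library, which limits what a single site can show.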
